A study of Mus musculus with 14 samples.

Results

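Cohesin is the protein ring that holds sister chromatids together and extrudes chromatin loops. The 10 cohesin genes described here are Smc1a, Smc3 and Rad21, which encode the ring; Stag1 and Stag2, which encode alternative versions of the STAG subunit; Nipbl, which encodes the loader; Wapl, Pds5a and Pds5b, which encode factors that release cohesin from DNA or keep it there; and Esco2, which encodes an acetyltransferase that locks the ring during S phase. They were taken by symbol from 14837 genes of the input table and from the 3 RIP tables, and all 10 passed the filter on low counts in the input. The group was picked by membership of the complex and because the RNA and the Igf2bp3-RIP peaks of Stag2 were known to be about 10-fold lower in Lin28a+ cells. The values of Stag2 in those assays are therefore given as a description, without a test.

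As background, the SMC proteins fold into long coiled coils that meet at a hinge and at ATPase heads, and Rad21 bridges the heads. A cohesin ring holds either Stag1 or Stag2. Stag1 cohesin is known mainly for stable binding at CTCF sites and at telomeres, and Stag2 cohesin for shorter loops within chromatin domains. In cycling cells such as cultured muscle progenitors, cohesin is loaded before replication, made cohesive in S phase, and opened by separase when Rad21 is cut at anaphase.

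The samples were mouse skeletal muscle stem cells (MuSCs) grown in culture, with no treatment named in the sources used here. Lin28a+ MuSCs were sorted by flow cytometry from Lin28a-CreERT2; LSL-tdTomato mice, in which cells that expressed the RNA-binding protein Lin28a when the Cre was active are marked by a red reporter. Control MuSCs are given only as control by genotype, and the age and the number of mice are not given in the sources used here. The Lin28a+ columns of the input table bear the names of m6A-RIP libraries and were assigned to the Lin28a+ input from the sample labels, so every Lin28a+ input value rests on that assignment. Each group had 2 input RNA-seq libraries, 2 m6A-RIP libraries (RNA pulled down with an antibody to N6-methyladenosine) and 2 Igf2bp3-RIP libraries (RNA bound to the m6A reader Igf2bp3), and Lin28a+ MuSCs had 2 further libraries of RNA bound to Lin28a, which makes 14 libraries. The libraries address how Lin28a and Igf2bp3 act on RNA that carries m6A. The methods speak of biological replicates in general, but no source used here says how the 2 sequenced libraries of a group were prepared, so each p-value measures only the spread between them.

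The deposited totals were 4842915 to 6220960 estimated counts in the input, 21350962 to 31830638 counts in m6A-RIP, 9215355 to 34142094 in Igf2bp3-RIP, and 33908110 and 36610494 in Lin28a-RIP. Divided by its degrees of freedom, the chi-square of a replicate pair, which is near 1 for counting noise alone, was 6.01 and 6.13 in m6A-RIP, 4.46 in Lin28a-RIP and 99.5 and 99.7 in Igf2bp3-RIP over all rows, so the Igf2bp3 replicates were far less alike than those of the other RIP assays. In the input it was 1.62 and 1.74 over only 534 genes, those of moderate level with whole-number values in all 4 libraries, and is not comparable with the RIP values. The 10 myogenic markers summed to between 14914 and 16087 CPM (counts scaled to the library total) in every input library. In edgeR's quasi-likelihood test 4 of the 10 were higher and 4 lower, where 28.1% of all genes were higher and 28.7% lower. Among the lower ones was the acetylcholine receptor subunit Chrna1 (control 5793 and 5985 CPM, Lin28a+ 3137 and 3196 CPM). The marker Myod1 did not pass the test (log2 fold change 0.01, adjusted p = 0.605). Its control libraries stood at 4542 and 4708 CPM and its Lin28a+ libraries at 4752 and 4775 CPM. Of the endothelial markers only Pecam1 was in the table, at 0.392 to 0.501 CPM, and macrophage markers summed to 1.61 to 3.18 CPM. Markers of fibro-adipogenic progenitors summed to 186 and 198 CPM in control libraries against 81.2 and 79.0 CPM in Lin28a+ MuSCs, with 2 of the 4 tested lower and 1 higher. Gsn, an actin-severing protein, made up most of these sums, whereas the collagen gene Col1a2 went from 41.1 and 42.6 CPM to 1.95 and 1.26 CPM (log2 fold change -4.71). Markers of pericytes or smooth muscle summed to 5322 and 5405 CPM in control libraries against 7545 and 7556 CPM in Lin28a+ MuSCs, with 3 of 4 higher and 1 lower. The smooth muscle actin gene Acta2 made up nearly all of these sums (5311 and 5396 CPM against 7484 and 7495 CPM), whereas the adhesion molecule Mcam went from 6.53 and 5.87 CPM to 56.8 and 56.5 CPM (log2 fold change 3.17). The part of other cells in the changes given next was not tested, and in bulk RNA fewer cells of a type and less RNA per cell cannot be told apart.

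The fall of Stag2 RNA was used to choose the group. In Lin28a+ MuSCs Stag2 RNA was 9.88% of the control level, whereas that of its paralog Stag1 was 95.5%. Of the other 9 genes, 1 rose (Rad21), 5 fell (Smc1a, Smc3, Nipbl, Wapl and Pds5a) and 3 did not pass the test (Stag1, Pds5b and Esco2), with edgeR's quasi-likelihood test and a Benjamini-Hochberg adjusted p under 0.05 over all 11317 genes. By the same rule 28.1% of all genes were higher and 28.7% were lower. The median log2 fold change of the 9 genes was -0.28 and that of all genes 0.01. Most of the genes tested were thus called, so calls in 6 of 9 genes are close to the background.

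The ring subunits did not move alike. Rad21, the kleisin that closes the ring, stood at 303 and 299 CPM in control libraries against 413 and 424 CPM in Lin28a+ input, a log2 fold change of 0.45 (SE 0.0294, adjusted p = 1.07e-04). It was the only one of the 10 with a higher level past the threshold, and both Lin28a+ libraries lay above both controls. Smc1a, on chromosome X, stood at 41.6 and 44.6 CPM in control libraries against 31.4 and 28.4 CPM in Lin28a+ MuSCs, and fell by 0.55 on the log2 scale (SE 0.0650, adjusted p = 8.61e-04). Its partner Smc3 stood at 38.5 and 34.9 CPM against 29.6 and 31.6 CPM, a log2 fold change of -0.28 (SE 0.0776, adjusted p = 0.0245). The groups of Smc3 did not overlap, but its call was lost with DESeq2 (adjusted p = 0.378) and without control replicate 1 (adjusted p = 0.172) or either Lin28a+ library (0.134 and 0.0597).

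**Figure D1:**
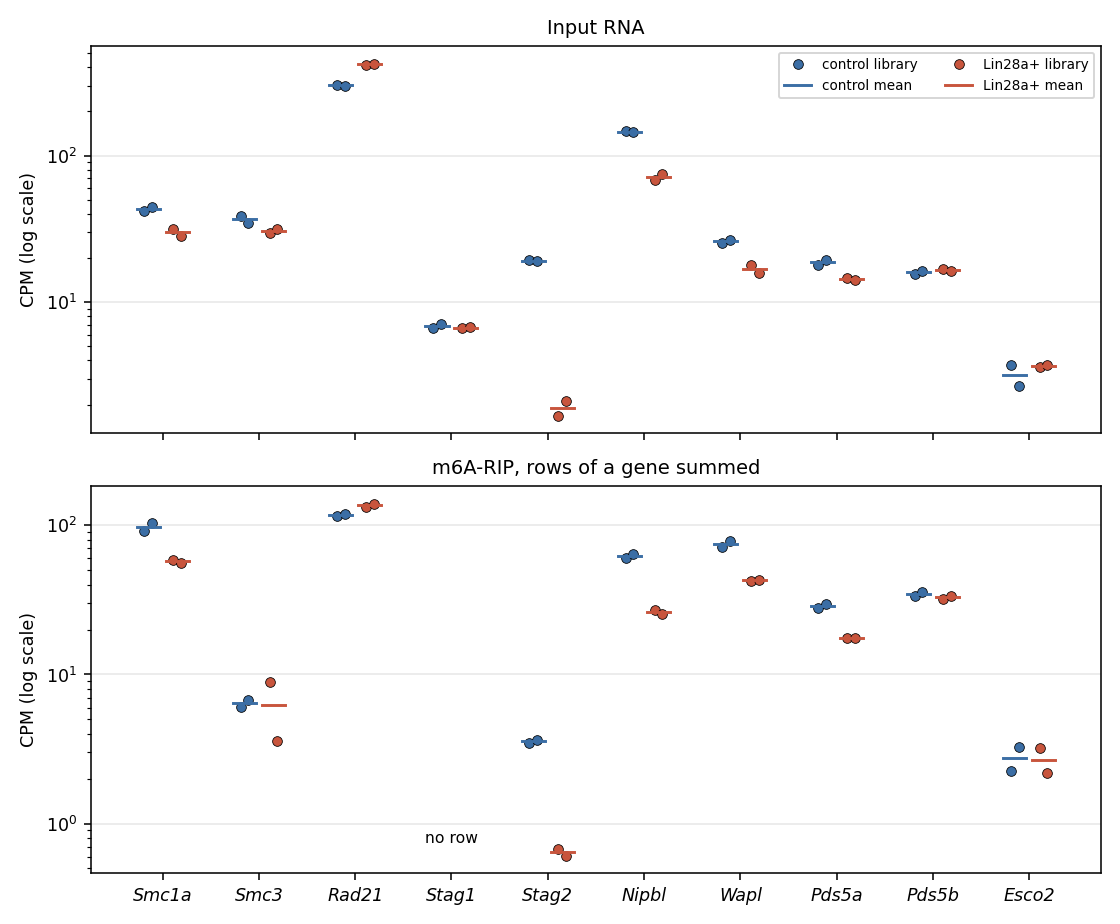
Levels of the 10 cohesin genes in each library, in CPM on a log axis, for input RNA (top) and for m6A-RIP with the rows of a gene summed (bottom); points are libraries and short lines are the means of 2. Stag2 is the gene with the widest gap between control and Lin28a+ MuSCs in both panels, Rad21 lies higher in Lin28a+ MuSCs, and Stag1 has no row in m6A-RIP.

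Stag2 (chrX:42149297-42277186 in GRCm38.p6) had 106 and 119 estimated counts in the control input and 8.50 and 10.3 in the Lin28a+ input. In CPM these were 19.4 and 19.1 against 1.68 and 2.12. The groups were far apart, and the log2 fold change was -3.34 (SE 0.108), which is 10.1-fold lower or 9.88% of control. Of the 11317 genes tested, 81 were lower by at least as much, Stag2 included, and 6 of these were among the 369 tested genes of chromosome X. The fall of Stag2 was used to choose the group, so nothing is read from its rank. On that chromosome 134 genes were called lower and 85 higher.

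Stag1, which encodes the other subunit for the same position in the ring, stood in control input at 6.65 and 7.04 CPM and in Lin28a+ input at 6.62 and 6.72 CPM. The log2 fold change was -0.07 (SE 0.0986, adjusted p = 0.832) and the groups overlapped. The ratio of Stag2 to Stag1 counts, which is not corrected for length, was 2.91 and 2.72 in the control libraries and 0.254 and 0.315 in the Lin28a+ libraries. Stag2 counts thus exceeded Stag1 counts in each control library and were below them in each Lin28a+ library.

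Nipbl, which loads cohesin on DNA and drives loop extrusion, showed the deepest fall among the tested genes of the complex. It went from 146 and 144 CPM in control to 67.8 and 75.0 CPM in Lin28a+ MuSCs, a log2 fold change of -1.05 (SE 0.0494, adjusted p = 3.79e-05), or 48.2% of control. The replicates of each group were close and the groups did not overlap.

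Of the release and maintenance factors, Wapl and Pds5a were lower and Pds5b did not pass the test. Wapl, which opens the exit gate of the ring, stood at 25.5 and 26.4 CPM in control libraries against 17.9 and 15.8 CPM in Lin28a+ MuSCs (log2 fold change -0.65, SE 0.0774, adjusted p = 8.81e-04), and DESeq2 gave an adjusted p of 0.0656. Pds5a stood at 18.0 and 19.5 CPM against 14.7 and 14.2 CPM (log2 fold change -0.41, SE 0.0705, adjusted p = 0.0157). The call of Pds5a was lost with DESeq2 (adjusted p = 0.375) and without control replicate 2 (0.110), Lin28a+ library a (0.0551) or Lin28a+ library b (0.0778). Its paralog Pds5b had 15.6 and 16.3 CPM in control libraries against 16.8 and 16.4 CPM in Lin28a+ MuSCs, a log2 fold change of 0.02 (SE 0.0646, adjusted p = 0.916). Pds5a counts were 1.15 and 1.19 times those of Pds5b in control and 0.876 and 0.865 times in Lin28a+ input, and in m6A-RIP the ratio went from 0.830 and 0.837 to 0.548 and 0.523.

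Esco2, which acetylates Smc3 in S phase, was the least abundant in counts after Stag2 in Lin28a+ MuSCs, with 3.71 and 2.67 CPM in control libraries against 3.60 and 3.72 CPM in Lin28a+ MuSCs. Its log2 fold change was 0.17 (SE 0.203, adjusted p = 0.686), and the groups overlapped. Esco2 had 20.3 estimated counts or fewer per library, and how small a change could be detected at that level was not tested.

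Smc1a, Wapl and Pds5a fell together in RNA and, as given next, in m6A-RIP, and their RefSeq start windows (250 bases before and 50 after the listed start, GRCm38.p6) are shown so that they can be compared. Such windows were found for 6 of the 10 genes (Stag1, Smc1a, Smc3, Wapl, Pds5a and Pds5b). The Smc1a window is chrX:152016178-152016477 on the plus strand, that of Wapl chr14:34673678-34673977 on the plus strand, and that of Pds5a chr5:65698187-65698486 on the minus strand. Capitals mark the GC box, read as GGGCGG or its reverse complement CCGCCC.
Smc1a: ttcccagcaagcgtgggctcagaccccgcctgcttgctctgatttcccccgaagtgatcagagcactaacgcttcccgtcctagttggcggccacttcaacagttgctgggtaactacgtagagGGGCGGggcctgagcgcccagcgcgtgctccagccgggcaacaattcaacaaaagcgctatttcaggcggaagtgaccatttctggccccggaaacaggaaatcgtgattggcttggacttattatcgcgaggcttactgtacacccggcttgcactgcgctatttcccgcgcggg
Wapl: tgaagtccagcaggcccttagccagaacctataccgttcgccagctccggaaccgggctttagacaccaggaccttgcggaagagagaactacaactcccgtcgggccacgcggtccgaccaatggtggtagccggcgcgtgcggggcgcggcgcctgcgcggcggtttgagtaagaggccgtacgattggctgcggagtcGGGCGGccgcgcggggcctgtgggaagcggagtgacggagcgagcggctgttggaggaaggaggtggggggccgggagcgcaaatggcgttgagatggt
Pds5a: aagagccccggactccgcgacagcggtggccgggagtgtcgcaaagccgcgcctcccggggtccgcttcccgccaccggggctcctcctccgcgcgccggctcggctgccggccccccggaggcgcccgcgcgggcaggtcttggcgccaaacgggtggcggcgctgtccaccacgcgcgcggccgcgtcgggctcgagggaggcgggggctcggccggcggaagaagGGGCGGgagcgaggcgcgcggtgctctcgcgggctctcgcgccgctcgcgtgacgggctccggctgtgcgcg
Each of the 3 windows holds 1 GC box, and so does that of Smc3, while Stag1 has 4 and Pds5b 3; over all 32851 windows 35.7% hold at least 1. The windows have 23 (Smc1a), 35 (Wapl), 55 (Pds5a), 32 (Smc3), 43 (Stag1) and 41 (Pds5b) CpG dinucleotides, against a median of 7 over all windows. None of the 6 windows holds TATAAA (13.6% of all windows) or the E-box CACGTG (7.15%) on either strand, and TTTGAA, the CHR element of many cell cycle promoters (17.9%), was found in Pds5b alone. Genes that fell (Smc1a, Wapl, Pds5a) and genes that did not pass the test (Stag1, Pds5b) thus share the GC box and the lack of a TATAAA match.

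In m6A-RIP, 9 of the 10 genes had at least 1 row, a row being a stretch of a transcript with a count and no position, and Stag1 had none. With the rows of a gene summed, 1 of the 8 genes other than Stag2 was higher (Rad21) and 4 were lower (Smc1a, Nipbl, Wapl and Pds5a), while 32.5% of all 9416 genes were called higher and 33.8% lower. An m6A-RIP count that is not scaled to input follows the amount of RNA, which was used to choose Stag2, so its values are given without a test. Stag2 had 1 row, with 111 and 78 counts in control and 16 and 19 in Lin28a+ MuSCs, or 3.49 and 3.65 CPM against 0.674 and 0.609 CPM. The groups did not overlap, and the log2 fold change was -2.37 (SE 0.294), 5.17-fold lower.

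The genes that fell in RNA also had less m6A-RIP signal, apart from Smc3. Nipbl went from 60.1 and 64.0 CPM to 27.2 and 25.4 CPM (log2 fold change -1.13, adjusted p = 3.88e-08). Wapl went from 71.3 and 78.5 CPM to 42.7 and 42.9 CPM (-0.70, adjusted p = 1.35e-06), Smc1a from 91.7 and 103 CPM to 58.7 and 56.0 CPM (-0.66, adjusted p = 1.38e-06) and Pds5a from 28.0 and 29.9 CPM to 17.6 CPM in both libraries (-0.61, adjusted p = 9.64e-05). Rad21 rose from 116 and 119 CPM to 133 and 140 CPM (0.32, adjusted p = 3.83e-05).

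Smc3 could not be placed in m6A-RIP, because its Lin28a+ libraries stood at 8.89 and 3.56 CPM, on either side of the control libraries at 6.06 and 6.74 CPM. The log2 fold change was 0.04 (adjusted p = 0.927) with both, -0.73 (adjusted p = 0.0159) without Lin28a+ library a and 0.57 (adjusted p = 0.0279) without library b. Pds5b (0.03, adjusted p = 0.762) and Esco2 (0.07, adjusted p = 0.850) did not pass the test.

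Row by row, the 22 m6A rows of the 8 genes other than Stag2 held 4 that were higher, all of Rad21, and 11 that were lower, against 30.0% and 31.8% of all 18881 rows. The 6 rows of Smc1a lay between -0.85 and -0.32 on the log2 scale with 5 called, the 3 of Nipbl had a median of -1.18 with 3 called, and the 5 of Rad21 between 0.33 and 0.43 with 4 called. Unequal change among the rows of a gene was tested in the 5 genes with more than 1 row. It was called in 0 of them (edgeR's diffSpliceDGE, lowest unadjusted p = 0.130, lowest adjusted p = 0.326), against 19.3% of the 4901 genes tested.

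**Figure D2:**
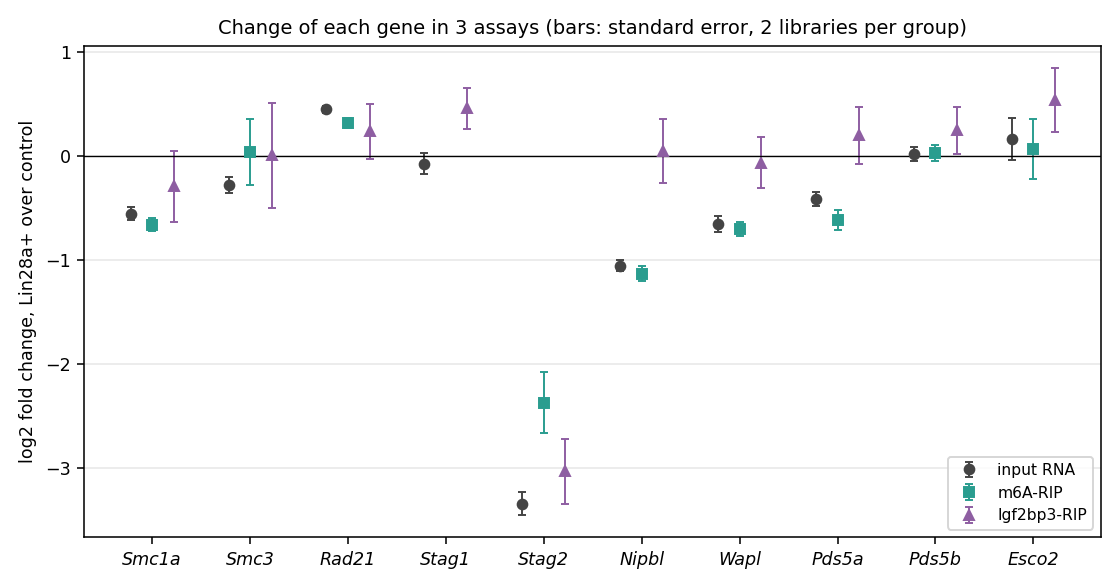
Log2 fold change of each cohesin gene, Lin28a+ over control MuSCs, in input RNA (circles), m6A-RIP (squares) and Igf2bp3-RIP (triangles), with standard errors from the fits on 2 libraries per group. The input and m6A-RIP points of Smc1a, Nipbl, Wapl and Pds5a lie below 0 while their Igf2bp3-RIP points have bars that reach 0, and Stag2 lies below -2 in all 3 assays.

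The m6A-RIP change was then set against the RNA change in a model of both assays. Relative to input, 0 of the 8 genes tested passed the threshold with edgeR or with DESeq2, 1 had an unadjusted p under 0.05 (Rad21, log2 difference -0.14, adjusted p = 0.180), and 7.16% of all 7950 genes were called. The differences ran from -0.22 (Pds5a, SE 0.129) to 0.29 (Smc3, SE 0.426). The difference of Smc3 had an adjusted p of 0.874 with all libraries, and was 0.85 (adjusted p = 0.0119) without Lin28a+ m6A-RIP library b and -0.46 (adjusted p = 0.181) without library a. Stag2, given without a test, had a difference of 0.97 (SE 0.312): its m6A-RIP signal was 5.17-fold lower while its RNA was 10.1-fold lower.

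Igf2bp3-RIP held 117 peaks in the 10 genes, and 17 of them lie in Stag2. All 17 were lower in Lin28a+ MuSCs, with log2 fold changes from -3.52 to -2.63 and a median of -3.04, that is 6.19-fold to 11.5-fold lower. In each of the 17 peaks both Lin28a+ libraries were below both control libraries, as they were in 2926 of all 19465 peaks, while 0.123% of all peaks were called by edgeR. Nothing is read from this count, since these values were used to choose the group. The centres of the peaks lie between 61.7 kb and 127 kb from the low-coordinate end of the gene. Exons were not looked up here.

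The widest and most abundant Stag2 peak, chrX:42275093-42276141, lies 126 kb into the gene, close to its far end, and had 659 and 1285 counts in control against 91 and 162 in Lin28a+ MuSCs. In CPM these were 71.5 and 46.6 against 7.21 and 4.74, 10.1-fold lower. The peak with the largest difference, chrX:42223056-42223306, had 19.3 and 15.1 CPM in control libraries against 2.30 and 0.937 CPM in Lin28a+ MuSCs, and the one with the smallest, chrX:42224762-42225018, had 38.4 and 24.6 CPM against 7.61 and 2.96 CPM. These last 2 peaks are centred 73.9 kb and 75.6 kb into the gene, so the extremes of the range lie next to each other. All 17 peaks kept signal in Lin28a+ MuSCs, with 20 to 162 counts in each Lin28a+ library.

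**Figure D3:**
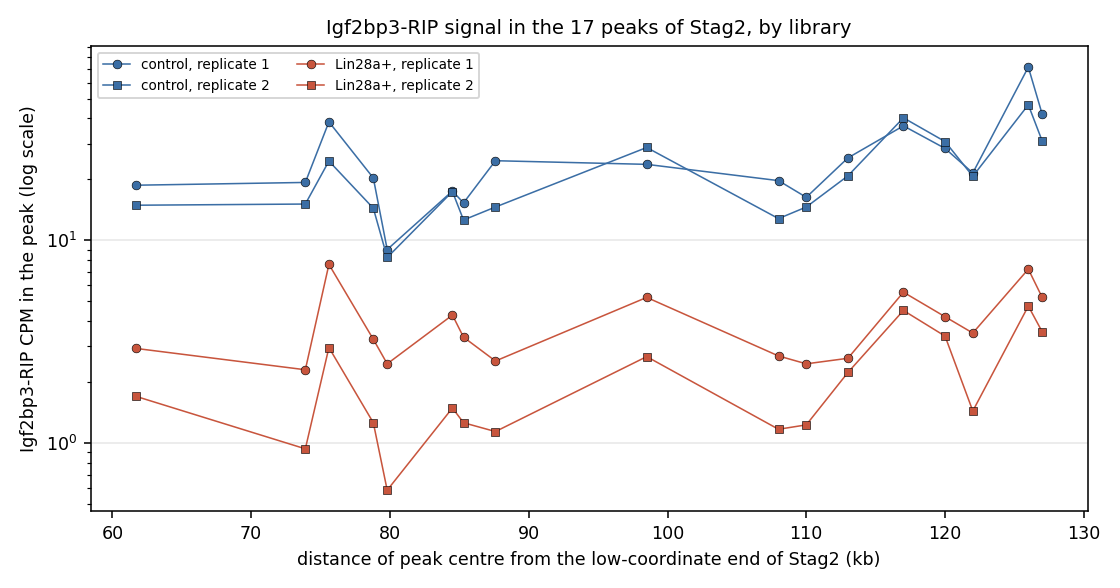
Igf2bp3-RIP signal in the 17 peaks of Stag2 for each of the 4 libraries, in CPM on a log axis, against the distance of the peak centre from the low-coordinate end of the gene in kb. The control lines lie between 8.23 and 71.5 CPM and the Lin28a+ lines between 0.586 and 7.61 CPM, and both Lin28a+ libraries lie below both controls in every peak.

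Summed over its peaks, Stag2 had 448 and 368 CPM in control libraries against 67.4 and 36.2 CPM in Lin28a+ MuSCs, 8.16-fold lower (log2 fold change -3.03, SE 0.317). Of 4527 genes with Igf2bp3-RIP peaks it was the 9th from the lowest. Of all 19465 peaks, 41 were lower by at least as much as the least lowered Stag2 peak, and 17 of these are the Stag2 peaks. Among the 456 genes with 10 or more peaks, Stag2 alone had every peak lower by over 4-fold. This rank and these counts describe values that were used to choose the group, and nothing is read from them. The ratio of Stag2 to Stag1 Igf2bp3-RIP counts was 2.58 in both control libraries and 0.300 and 0.164 in the Lin28a+ libraries. Relative to input the Stag2 difference was 0.09 (SE 0.468), both changes having been used to choose the group, and it ran from -0.32 without Lin28a+ Igf2bp3-RIP replicate 1 to 0.46 without replicate 2.

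The other 9 genes had 100 peaks, and 0 of them were called by edgeR without a replicate block or by DESeq2, 1 with an unadjusted p under 0.05, against 0.123% of all peaks called by edgeR. Per gene, too, 0 of the 9 were called by either tool in these fits and 0 had an unadjusted p under 0.05, with 0.287% of all genes called. Stag1 had all 12 peaks above 0 (median 0.48), and its sum stood at 174 and 143 CPM in control libraries against 224 and 221 CPM in Lin28a+ MuSCs, a log2 fold change of 0.46 with separate groups (SE 0.198, adjusted p = 0.609). Pds5a, with 22 peaks the gene with the most, had 21 above 0 (median 0.19), and all 8 peaks of Smc1a were below 0 (median -0.27). Peaks of 1 gene share its RNA and are not replicates.

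Nipbl fell in RNA without a similar value in Igf2bp3-RIP. Its Igf2bp3-RIP sum was 481 and 267 CPM in control libraries against 472 and 319 CPM in Lin28a+ MuSCs, a log2 fold change of 0.05 (SE 0.311, adjusted p = 0.992) with groups that overlapped. Relative to input the difference was 0.88 (SE 0.365, adjusted p = 0.205), and this was the only 1 of the 9 tested genes with an unadjusted p under 0.05. In total 0 of the 9 passed the threshold with edgeR without a replicate block or with DESeq2, against 1.04% of the 3927 genes tested by edgeR. With the replicate block described at the end, Nipbl and Rad21 were called, as were 33.2% of all genes tested. The difference of Pds5a was 0.38 (adjusted p = 0.397) with all libraries, 0.60 (adjusted p = 0.0491) without Lin28a+ Igf2bp3-RIP replicate 1 and 0.19 (adjusted p = 0.477) without replicate 2, so its call rests on leaving out 1 library.

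**Figure D4:**
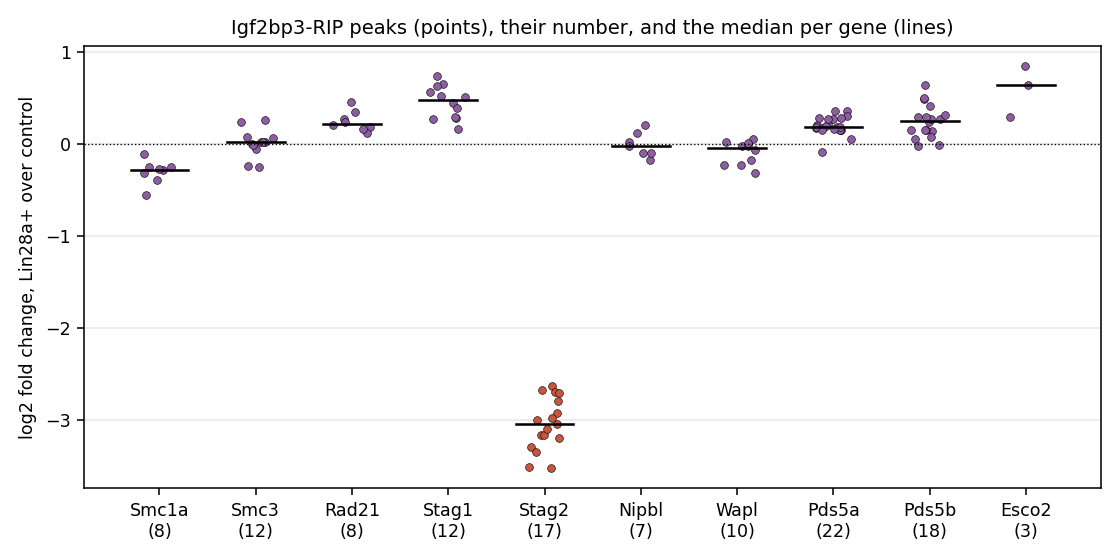
Log2 fold change, Lin28a+ over control MuSCs, of each of the 117 Igf2bp3-RIP peaks of the cohesin genes (points), with the number of peaks under each name and the median as a line. The 17 Stag2 peaks lie between -3.52 and -2.63, and the 100 peaks of the other genes lie between -0.55 and 0.85.

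Lin28a-RIP was made in Lin28a+ MuSCs only, so there is no comparison between groups. It held 130 peaks in 9 of the 10 genes and none in Stag2. Pds5b had 29 peaks, Pds5a 26, Smc3 18, Stag1 and Smc1a 15 each, Nipbl 10, Wapl 9, Rad21 7 and Esco2 1. The peak of Esco2, at a mean of 3.66 CPM in the Lin28a+ input, held 446 and 425 counts. Stag2 had a mean of 1.90 CPM in the same input, and the part of this low level in the lack of a peak was not tested. Among the 304 genes with a mean of 5 to 20 estimated counts in the Lin28a+ input and an Igf2bp3-RIP peak, 152 had a Lin28a-RIP peak. Of the 456 genes with 10 or more Igf2bp3-RIP peaks, 20 had no Lin28a-RIP peak, and of the 138 with 17 or more, 3 had none. No Lin28a-RIP was made in control MuSCs, where Stag2 RNA was higher.

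Most of the Lin28a-RIP peaks lie where Igf2bp3 peaks also lie. Of the 130 peaks, 91 (70.0%) overlapped an Igf2bp3-RIP peak of the same gene by at least 1 base, and of all 19685 Lin28a-RIP peaks in genes with peaks of both kinds 57.4% did. The share was 88.9% in Wapl (8 of 9), 84.6% in Pds5a (22 of 26) and 53.3% in Smc1a (8 of 15). In the other direction, all 22 Igf2bp3-RIP peaks of Pds5a, all 18 of Pds5b, all 12 of Smc3, all 8 of Smc1a and all 7 of Nipbl overlapped a Lin28a-RIP peak, as did 11 of 12 in Stag1, 7 of 8 in Rad21, 8 of 10 in Wapl, 1 of 3 in Esco2 and 0 of 17 in Stag2. The share over all Igf2bp3-RIP peaks was not computed in this direction, so these counts are a description only. In Nipbl, 40.5% of the Lin28a-RIP counts fell in 1 peak, chr15:8350223-8351948, and the highest Igf2bp3-RIP peak of the gene, chr15:8350258-8351956, covers nearly the same bases. In Wapl the highest peaks were chr14:34691564-34692706 for Lin28a-RIP and chr14:34691565-34692706 for Igf2bp3-RIP. Stag1 had no m6A-RIP row although it had peaks of both proteins, as did 500 (18.3%) of the 2738 genes with peaks of both.

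The Lin28a-RIP signal relative to RNA differed widely within the complex. Pds5a had 926 and 957 CPM in Lin28a-RIP and a log2 ratio over input of 6.03, higher than or equal to 94.0% of the 3016 genes in both tables, whose median was 1.82. Pds5b (5.37), Stag1 (5.22), Smc3 (4.44), Smc1a (4.18), Wapl (3.91) and Nipbl (2.52) were also above the median. Esco2 (1.76) was just under it, and Rad21, with the most input counts of the 10 when length is not considered, was at 0.31. The Igf2bp3-RIP ratios in control MuSCs ran from 5.57 in Pds5a to 0.80 in Rad21, with Stag2 at 4.41 in control and 4.77 in Lin28a+ MuSCs, where the medians of all genes were 1.53 and 1.81. Input and RIP counts come from tables made in different ways, and input counts have decimals that a mean over transcripts would give, so these ratios rank genes only roughly.

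**Figure D5:**
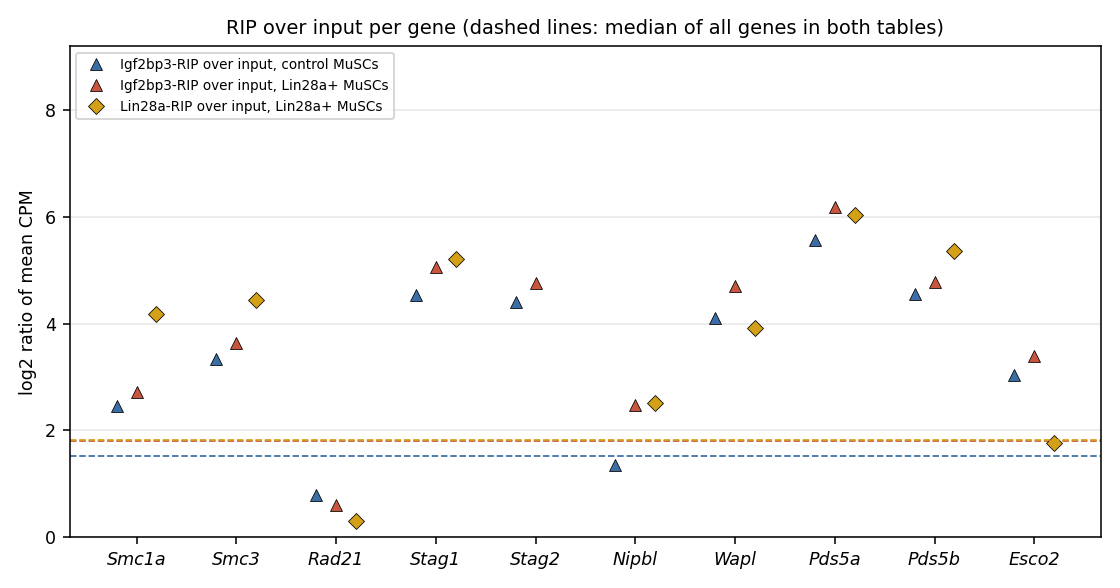
Log2 ratio of mean RIP CPM to mean input CPM for each cohesin gene, for Igf2bp3-RIP in control (blue triangles) and Lin28a+ MuSCs (red triangles) and for Lin28a-RIP in Lin28a+ MuSCs (diamonds); dashed lines are the medians of all genes in both tables, and those at 1.81 and 1.82 lie on each other. Pds5a is highest and Rad21 lowest for both proteins, and Stag2 has no Lin28a-RIP point.

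Further genes of the pathway were taken as 3 lists, chosen with earlier results of these data known. Of 22 tested regulators of cohesin and subunits other than the 10 genes, 15 rose, 0 fell and 7 did not pass the test in edgeR, with a median log2 fold change of 0.64, against 28.1% of all genes higher, 28.7% lower and a median of 0.01. With DESeq2 only 7 of these 22 rose (31.8%, against 13.1% of all genes). The largest rises were those of Plk1, the mitotic kinase that removes cohesin from chromosome arms (78.7 and 89.4 CPM in control, 221 and 229 CPM in Lin28a+ MuSCs, log2 fold change 1.39), of Cdca5, which encodes the Wapl antagonist sororin (1.29), of Aurkb, a mitotic kinase (1.19), and of Chtf18, a clamp loader that acts in cohesion (1.02). Of 14 genes of condensin and SMC5/6, the related SMC complexes, 7 rose and 2 fell (median 0.24), with the condensin subunits Ncaph, Ncapd2 and Ncaph2 at 1.00 each and the SMC5/6 subunit Nsmce1 at 0.92. Of 20 genes of S phase and mitosis, 16 rose and 3 fell (median 0.97). Among them Ccnb2, a mitotic cyclin, was at 1.39, Cdc20, the activator of the anaphase-promoting complex, at 1.33, and the replicative helicase subunits Mcm5 and Mcm2 at 1.27 and 1.23. The adjusted p of these 12 genes lay between 5.20e-06 and 2.17e-04. With DESeq2 the calls over the 3 lists went from 43 to 27 of 56 (48.2%), while 26.9% of all genes were called. The lists were described, not tested as sets.

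The genes around Stag2 on chromosome X were then listed by position. Of 19 annotated genes within 1 Mb, 3 were tested, all on the low-coordinate side, and all 3 were called lower by edgeR, as were 28.7% of all tested genes and 36.3% of those on chromosome X. Xiap, an inhibitor of caspases, lies 39.6 kb away and went from 12.5 CPM in both control libraries to 7.77 and 6.08 CPM (log2 fold change -0.89, adjusted p = 0.00158). Thoc2, an mRNA export factor 237 kb away, went from 5.57 and 6.13 CPM to 2.41 and 2.49 CPM (-1.28, adjusted p = 7.00e-04). Gria3, a glutamate receptor subunit 471 kb away, had 47.9 and 59.2 estimated counts in control and 1.11 and 0.333 in Lin28a+ MuSCs, which is too few for a fold change to be read. With DESeq2 the calls of Xiap (adjusted p = 0.101) and Thoc2 (0.131) were lost, which left 1 of the 3. In Igf2bp3-RIP, the 6 peaks of Gria3 had a median log2 fold change of -4.47, while the 9 of Xiap (0.16) and the 6 of Thoc2 (0.11) stood near 0. Lin28a-RIP held 19 peaks in Thoc2, 2 in Xiap and none in Gria3, as in Stag2. The part of the low RNA level of Gria3 in its RIP values was not tested, nor was any link to position.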

How the data were processed

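Mouse MuSC libraries were analysed from the files the authors deposited. Their notes name FastQC, HISAT2 2.0.4, MACS2 1.4.3, DESeq2 1.42.0 and the builds GRCh38 and mm10; peak thresholds, pooling and the counting program are not given in the sources used here. Input values deposited by the authors are estimated counts of genes (expected counts that need not be whole), here rounded to whole numbers before tests. RIP values deposited by the authors are raw counts of peaks or rows, without scaling. RefSeq tables of GRCm38.p6 gave symbols (14831 of 14837 input genes, 18873 of 18881 m6A-RIP, 19460 of 19465 Igf2bp3-RIP and 21611 of 21616 Lin28a-RIP rows matched), gene positions and start windows. Peak coordinates are those of the files. The 2 Lin28a+ columns of the input table bear the names of m6A-RIP libraries and were taken as Lin28a+ input because the labels of those samples name this table; the 2 Lin28a+ columns of the m6A-RIP table share 1 name. All 4 got a group but no replicate number.

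Tests used edgeR 4.0.16 in R 4.3.3 (quasi-likelihood, TMM, filterByExpr, Benjamini-Hochberg over all features, threshold 0.05). The fits were also run on simulated counts with independent replicates, without the shared replicate differences seen in Igf2bp3-RIP (r = 0.703). That run therefore cannot show how those differences bear on the Igf2bp3-RIP calls. Changes relative to input used 1 model of both assays with an interaction term and TMM within each assay. SE is that of the log2 fold change. The 10 genes, the lists and the markers were chosen with earlier results of these data known. The text names all 10 genes, the 4 genes of each list with the largest change past the threshold, the tested genes within 1 Mb of Stag2, and few markers. Alternatives were DESeq2, RLE size factors, total counts, no filter, at least 10 counts in every library, a replicate block, other overlap and count limits, and each library left out. Lin28a itself was not analysed here. Counts measure counting error only for reads, which are not independent molecules.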

Additional observations from a re-analysis of the deposited data

How the results depend on the processing

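Counting Stag2, whose own calls are not used as a result, RNA calls among the 10 genes went from 7 to 4 with DESeq2. Calls over the 3 gene lists went from 43 to 27 with DESeq2, and calls beside Stag2 from 3 to 1. Over all 11317 genes tested the RNA calls went from 6432 to 3039 (26.9%) with DESeq2. Among Igf2bp3-RIP peaks of the 10 genes the number called was 3 as fitted by edgeR with TMM (all of Stag2), 17 with DESeq2 (all of Stag2; 1.35% of all peaks), 5 with total counts (0.185%), 0 with at least 10 counts in every library, 20 with the replicate block (17 of Stag2), and 14 to 17 with 1 library left out. Per gene it went from 1 to 0 with total counts. With 1 library left out a group holds 1 library, so calls of those fits are not counted in this section. The cause of the differences in calls between settings was not tested.

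Control and Lin28a+ Igf2bp3-RIP libraries share the replicate numbers 1 and 2, but no label says that a number marks a batch. The differences between replicates 1 and 2 correlated across 19465 peaks with r = 0.703, a hint from the data and not from the design. With the replicate block 1988 of all peaks (10.2%) were called and, relative to input, 1304 of 3927 genes (33.2%), among them 2 of the 10 genes, Nipbl (0.90, adjusted p = 0.00661) and Rad21 (-0.45, adjusted p = 0.0150), in edgeR. No replicate block was fitted for input or m6A-RIP: the Lin28a+ input columns carry numbers of m6A-RIP libraries, which were not taken as input replicates, and the Lin28a+ m6A-RIP columns share 1 name.

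None of the values whose sign turned had passed the threshold in the main fit, made with TMM on all libraries. Total counts gave -0.06 (Smc3), -0.07 (Pds5b) and -0.035 (Esco2) in m6A-RIP, while Pds5b was -0.0017 in RNA with at least 10 counts in every library, 0.0043 (DESeq2), 0.0067 (RLE size factors), 0.0033 (total counts) and 0.018 (at least 10 counts) in m6A-RIP relative to input, and -0.0083 (DESeq2) and -0.0084 (RLE size factors) in Igf2bp3-RIP relative to input. With 1 library left out the log2 values ran as follows, from lowest to highest. In Igf2bp3-RIP per gene they were Nipbl from -0.27 to 0.46, Smc1a from -0.64 to 0.16, Smc3 from -0.54 to 0.83 and Wapl from -0.25 to 0.17. In Igf2bp3-RIP relative to input they were Esco2 from -0.13 to 0.47, Pds5b from -0.17 to 0.19, Smc1a from -0.32 to 0.48 and Smc3 from -0.47 to 0.89. In input RNA they were Esco2 from -0.06 to 0.39 and Pds5b from -0.0033 to 0.045. In m6A-RIP per gene they were Esco2 from -0.21 to 0.34, Pds5b from -0.015 to 0.07 and Smc3 from -0.73 to 0.57. In m6A-RIP relative to input they were Esco2 from -0.39 to 0.16, Pds5b from -0.049 to 0.03, Smc3 from -0.46 to 0.85 and Wapl from -0.16 to 0.043. Total counts moved the median of all genes by -0.10 in m6A-RIP per gene, by -0.15 per row and by 0.14 in Igf2bp3-RIP relative to input.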
